A study of Mus musculus with 7 samples.

Results

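Acod1, Nos2, Arg1, Arg2, Ass1, Slc7a2, Gch1 and Ido1 encode the enzymes, and the arginine transporter, through which macrophages make itaconate and nitric oxide and consume arginine and tryptophan. These 8 genes were chosen by name, with earlier results of these data known, so counts among them are no independent evidence. Each was read from the brightest probe set that names it alone. Of these 8, 7 were among the 19938 genes measured. For Ass1, both probe sets are also assigned to its pseudogene Gm5424, so it had no value of its own.

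Macrophages were sorted from the lamina propria of the colon, the tissue under the gut epithelium, of 6-week-old C57BL/6 mice, and their RNA was read on 7 Affymetrix arrays. Il10ra_mKO (2 arrays, sort label resident) stands for CX3CR1cre:IL10Raflox/flox mice, in which Cre expressed from the Cx3cr1 locus deletes the ligand-binding chain of the IL-10 receptor. Their reference, resident WT (3 arrays), stands for CX3CR1gfp/+ mice, in which 1 Cx3cr1 allele is replaced by GFP. Il10_KO (1 array, sort label CX3CR1hi) stands for IL10-/- CX3CR1gfp/+ mice, which lack IL-10 in every cell, and CX3CR1hi WT (1 array) for CX3CR1gfp/+ mice. All groups thus carry an altered Cx3cr1 allele. No array carries Cre with an intact receptor gene, so what the Cre allele does and what losing the receptor does cannot be told apart. Cre driven by Cx3cr1 acts in every cell that expresses or has expressed Cx3cr1, not in resident macrophages alone. Nothing in the labels ties the arrays of a group to different animals. The p-values thus reflect the spread of these samples alone, which may be technical. In bulk arrays fewer cells of a type and less RNA per cell cannot be told apart.

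Macrophages that sense microbial products switch on a small set of metabolic enzymes. Acod1 turns the citric acid cycle intermediate cis-aconitate into itaconate, which inhibits succinate dehydrogenase and restrains bacterial growth. Nos2 oxidises arginine to nitric oxide and citrulline, using the tetrahydrobiopterin that Gch1 begins to make. Arg1 and Arg2 split the same arginine into ornithine and urea, Slc7a2 carries it into the cell, and Ass1 starts its recovery from citrulline. Ido1 opens the breakdown of tryptophan to kynurenine. IL-10 is known for restraining the response of gut macrophages to microbes.

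The promoters of Acod1 and Gch1 are shown to set the start of the gene with the largest Il10ra_mKO difference of the 7 beside that of a gene with a small one. Each is the stretch from 250 bases before the RefSeq start of the gene to 50 bases from it on, 5′ to 3′ on the gene's strand, from RefSeq on GRCm38.p6. The Acod1 stretch is chr14:103046762-103047061 on the plus strand and the Gch1 stretch is chr14:47189364-47189663 on the minus strand. Capitals mark matches, on either strand, to 1 of 4 short motifs.
Acod1: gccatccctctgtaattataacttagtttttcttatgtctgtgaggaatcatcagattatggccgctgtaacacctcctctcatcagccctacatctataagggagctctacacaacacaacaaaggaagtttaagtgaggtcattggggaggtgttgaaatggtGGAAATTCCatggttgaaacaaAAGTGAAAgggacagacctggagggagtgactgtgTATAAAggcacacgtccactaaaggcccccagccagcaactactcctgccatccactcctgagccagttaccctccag
Gch1: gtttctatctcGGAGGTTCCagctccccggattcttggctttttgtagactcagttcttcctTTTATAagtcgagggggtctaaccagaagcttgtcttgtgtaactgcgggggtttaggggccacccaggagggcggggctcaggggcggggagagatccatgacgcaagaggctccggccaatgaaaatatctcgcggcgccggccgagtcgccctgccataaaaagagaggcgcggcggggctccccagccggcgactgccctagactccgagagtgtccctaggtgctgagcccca
The motifs searched were TATAAA (the TATA box), AANNGAAA (the core bound by interferon regulatory factors), TTCNNNGAA (the element bound by STAT factors) and GGANNTTCC (a core bound by NF-κB). Their letters were chosen after the Acod1 sequence had been seen. Acod1 holds TATAAA 28 to 23 bases before its start. It also holds AAGTGAAA, a match to AANNGAAA, 63 to 56 bases before the start, and GGAAATTCC, a match to GGANNTTCC, 85 to 77 bases before it. Gch1 holds TTTATA, which is TATAAA on the other strand, 188 to 183 bases before its start, and GGAGGTTCC, a match to GGANNTTCC, 239 to 231 bases before it. TTCNNNGAA is in neither window. Over 32851 promoters of the same length, 13.6% hold TATAAA, 23.9% AANNGAAA, 8.3% TTCNNNGAA and 4.3% GGANNTTCC. No 2 matches overlap in either window. Promoters of 3 of the 8 genes were in the table used. The third, that of Ass1, held no match to any of the 4 motifs. The signal that Ass1 shares with Gm5424 had an Il10ra_mKO difference of 2.62. Whether any match bears on the differences was not tested.

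In macrophages labelled as lacking Il10ra, Acod1, Nos2, Arg2, Slc7a2 and Ido1 all stood at least 2-fold above WT of the same sort label, with no overlap between the groups. Against the WT mean, array 2 of the mutant alone was 1.69-fold higher for Slc7a2 and 1.35-fold for Ido1, so without array 1 the count is 3, and it is also 3 with values below log2 5.87 set to that level. Gch1 stood 1.43-fold above it, also without overlap, and Arg1 overlapped with WT. In the single Il10_KO array the same 5 genes stood at least 2-fold above their WT array, and Arg1 did not. No gene of the 7 passed an adjusted p of 0.05 in the fit to all genes, so these are differences in level with their spread, not calls.

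**Figure D1:**
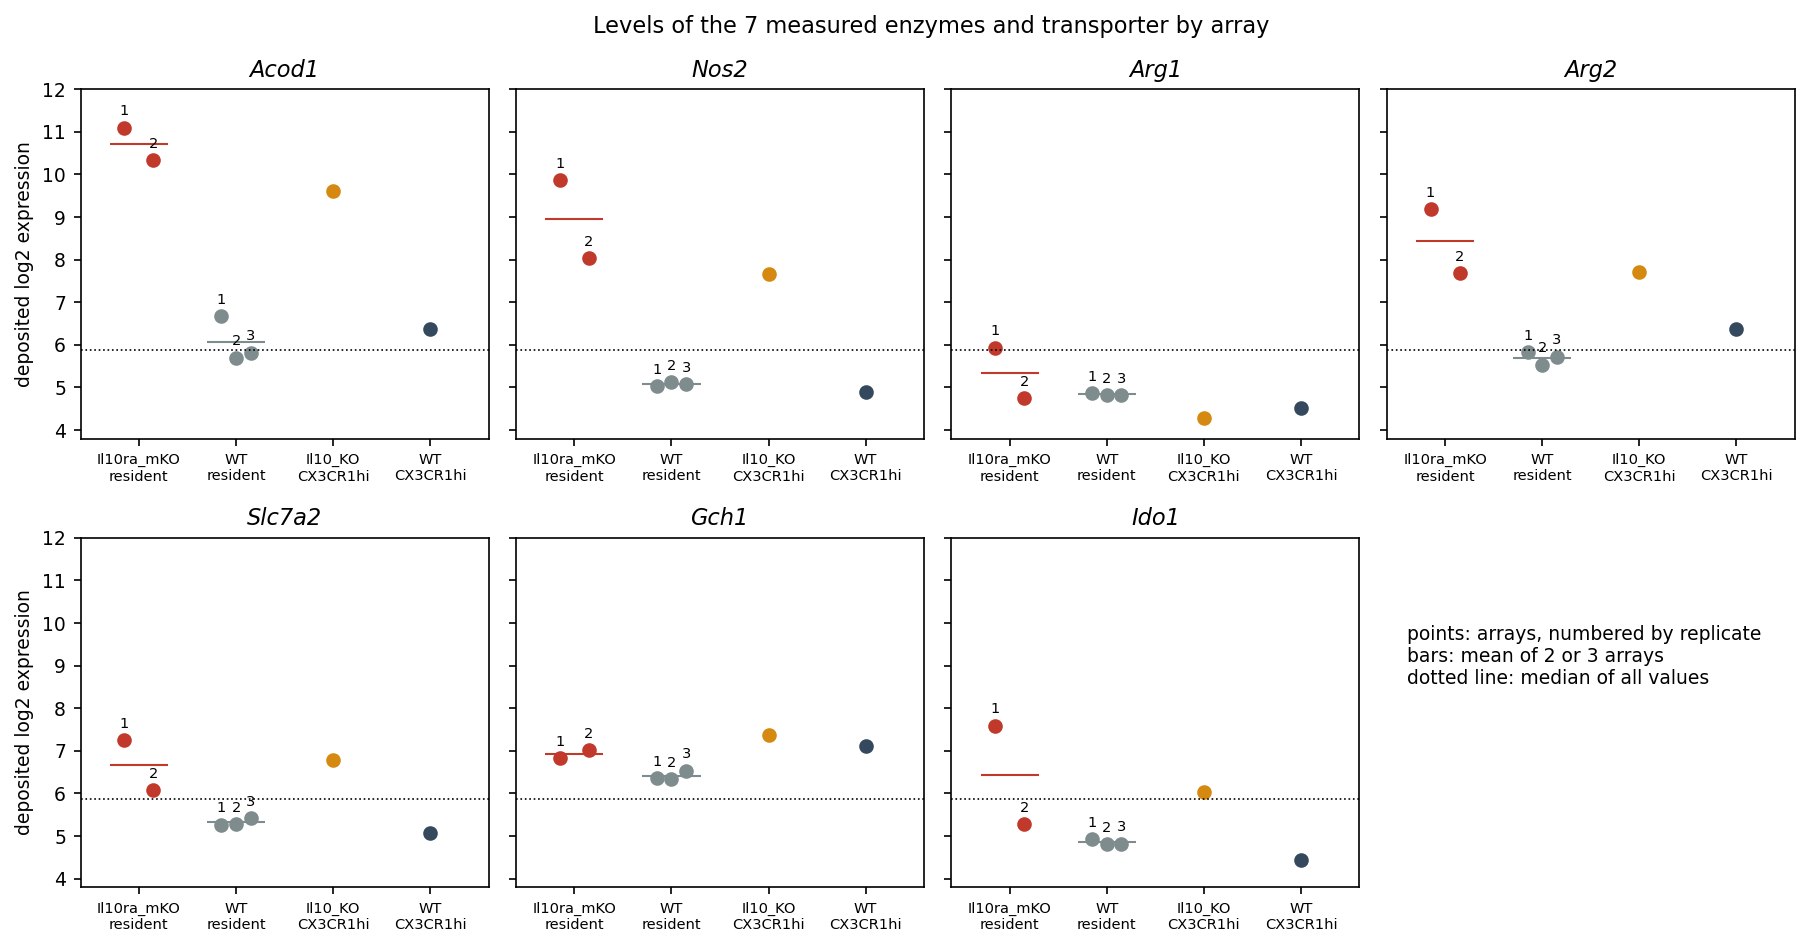
Deposited log2 expression (y axis) of the 7 measured genes in each array, by group (x axis). Points are arrays, numbered by replicate, and bars are means of 2 or 3 arrays. The dotted line is log2 5.87, the median of the 19938 gene values over all arrays. Acod1 lies at 11.10 and 10.33 in Il10ra_mKO and at 5.70 to 6.67 in resident WT, while Arg1 overlaps between these groups.

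The targeted gene was checked first. Il10ra was at log2 8.05 and 7.04 in the Il10ra_mKO arrays, against 10.56, 10.76 and 11.12 in the resident WT arrays. This is a difference of -3.27 ± 0.38 (SE, adjusted p = 0.243 by limma), and the groups did not overlap. Il10 was at 10.75 in the Il10_KO array and at 11.04 in the CX3CR1hi WT array. Whether the Il10 probes lie inside the deleted stretch is not known here, so that level checks nothing and the Il10_KO array is named from its label.

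Acod1, the itaconate synthase, was at log2 11.10 and 10.33 in Il10ra_mKO, against 6.67, 5.70 and 5.82 in resident WT. Both mutant arrays were far above all 3 WT arrays, and the arrays of the mutant lay within 0.77 of each other. The difference was 4.65 ± 0.43 (SE), a 25.2-fold higher level, and ranked 4 among all 19938 genes (adjusted p = 0.208 by limma). In Il10_KO Acod1 was at 9.61, against 6.36 in CX3CR1hi WT, a 9.49-fold higher level that ranked 6 in that comparison. Resident WT arrays 2 and 3 lay below 5.87, the median of the 19938 gene values over all arrays. With values below 5.87 set to that level, the difference was 4.58 for Il10ra_mKO and 3.25 for Il10_KO.

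Nos2, the inducible nitric oxide synthase, was at log2 9.86 and 8.03 in Il10ra_mKO, against 5.03, 5.13 and 5.08 in resident WT. The WT arrays lay below 5.87, the median of the 19938 gene values over all arrays. RMA pulls values together there, so the fold may understate the change. The difference was 3.86 ± 0.61 (SE), a 14.5-fold higher level (adjusted p = 0.322 by limma). In Il10_KO Nos2 was at 7.66, against 4.90 in CX3CR1hi WT, 6.74-fold higher. With values below 5.87 set to that level, the differences were 3.07 for Il10ra_mKO and 1.79 for Il10_KO.

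Gch1, which makes the first intermediate of the cofactor of Nos2, was at log2 6.83 and 7.02 in Il10ra_mKO, against 6.36, 6.33 and 6.53 in resident WT. Both mutant arrays were above all WT arrays and close together, and the difference was small, 0.52 ± 0.10 (SE, 1.43-fold, adjusted p = 0.369 by limma). In Il10_KO it was at 7.38, against 7.10 in CX3CR1hi WT, a difference of 0.28.

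The genes that handle arginine differed among themselves. Arg2, the mitochondrial arginase, was at log2 9.18 and 7.68 in Il10ra_mKO, against 5.83, 5.53 and 5.72 in resident WT. The groups were well apart, and the difference was 2.73 ± 0.51 (SE), 6.66-fold (adjusted p = 0.369 by limma). In Il10_KO Arg2 was at 7.72, against 6.38 in CX3CR1hi WT, 2.53-fold higher. The resident WT arrays all lay below 5.87. With values below 5.87 set to that level, the differences were 2.56 for Il10ra_mKO and 1.34 for Il10_KO.

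Arg1, the cytosolic arginase and a common marker of alternatively activated macrophages in mice, was at log2 5.93 and 4.75 in Il10ra_mKO, against 4.87, 4.82 and 4.82 in resident WT. Mutant array 1 was above the WT arrays and array 2 was below them. The difference of 0.51 ± 0.39 (SE, adjusted p = 0.689 by limma) rests on array 1 and is -0.08 without it. In Il10_KO Arg1 was at 4.29, against 4.51 in CX3CR1hi WT. All WT values of Arg1 lay below 5.87, and so did 2 of the 3 mutant values, whereas Arg2 lay above it in all 3 mutant arrays.

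Slc7a2, the cationic amino acid transporter that supplies arginine to Nos2 in macrophages, was at log2 7.25 and 6.08 in Il10ra_mKO, against 5.26, 5.28 and 5.41 in resident WT. The groups did not overlap, and the difference was 1.35 ± 0.39 (SE), 2.54-fold (adjusted p = 0.535 by limma). In Il10_KO Slc7a2 was at 6.79, against 5.06 in CX3CR1hi WT, 3.33-fold higher. With values below 5.87 set to that level, the differences were 0.79 for Il10ra_mKO and 0.93 for Il10_KO.

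The probe sets shared by Ass1 and Gm5424 gave a joint signal of both. The brighter was at log2 10.52 and 10.34 in Il10ra_mKO, against 7.62, 7.81 and 8.0 in resident WT, a difference of 2.62. In Il10_KO it was at 9.26, against 7.90 in CX3CR1hi WT, a difference of 1.35. The second probe set was at 10.39 and 10.21 in Il10ra_mKO, against 7.43, 7.72 and 7.88 in resident WT, and gave the same differences. How much of this signal is Ass1 cannot be told apart from the pseudogene, and it enters no count below.

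Ido1, the first enzyme of the kynurenine pathway, was at log2 7.59 and 5.28 in Il10ra_mKO, against 4.92, 4.81 and 4.82 in resident WT. Array 1 was far above WT and array 2 little above it, a gap of 2.31 between mutant arrays that is the widest of the 7 genes. The difference was 1.58 ± 0.76 (SE), 3.00-fold (adjusted p = 0.678 by limma). In Il10_KO Ido1 was at 6.04, against 4.43 in CX3CR1hi WT, 3.05-fold higher. All 4 WT arrays lay below 5.87, and with values below that level set to it the differences were 0.86 for Il10ra_mKO and 0.17 for Il10_KO.

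**Figure D2:**
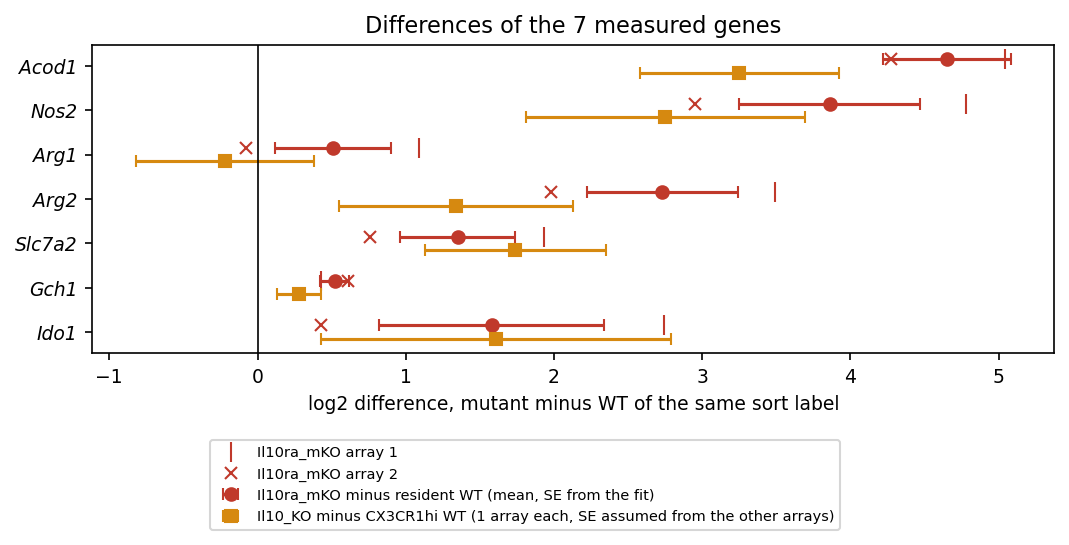
Log2 difference (x axis), mutant minus WT of the same sort label, for the 7 measured genes (y axis). Circles are the mean of 2 Il10ra_mKO arrays against 3 WT arrays with the SE of the fit, bars and crosses are the single Il10ra_mKO arrays, and squares are the Il10_KO array against 1 WT array with an SE assumed from the resident arrays. Il10ra_mKO array 1 lies right of array 2 for every gene but Gch1, and Acod1 and Nos2 have the largest differences in both comparisons.

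Set against all genes, 0 of the 7 passed an adjusted p of 0.05 by limma for Il10ra_mKO, where 0.00502% of all genes did. At an unadjusted p under 0.05, 5 of the 7 were higher (Acod1, Nos2, Arg2, Slc7a2 and Gch1), against 4.06% of all genes. By level, 5 of the 7 had both mutant arrays above all resident WT arrays and at least a 2-fold difference (Acod1, Nos2, Arg2, Slc7a2 and Ido1), against 0.913% of all genes. The median difference of the 7 was 1.58 on the log2 scale, against 0.0 over all genes.

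Adjusted p-values changed when the arrays were scaled in another way, and also when a mutant array was left out without rescaling. After quantile normalization over the 7 arrays, Acod1 (adjusted p = 0.0243) and Nos2 (adjusted p = 0.0481) passed by limma, where 0.572% of all genes did. With each array centred on its median, Acod1 (adjusted p = 0.00679), Nos2 (adjusted p = 0.0245) and Arg2 (adjusted p = 0.0435) passed, where 0.732% did. The differences themselves changed little, for Acod1 to 4.65 and 4.70. The SE of Acod1 was 0.41 and 0.33 in these fits, against 0.43 as deposited. Why the adjusted p changed was not tested. Without Il10ra_mKO array 1, Nos2 passed (adjusted p = 0.0358), where 1.33% of all genes did. Without array 2, Nos2 (adjusted p = 0.0415), Arg1 (0.0415), Arg2 (0.0451), Slc7a2 (0.0461) and Ido1 (0.0415) passed, where 1.34% did. These fits assume that the lone mutant array varies like the others.

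For Il10_KO the difference rests on 1 array against 1 and has no replicate check. At least a 2-fold higher level was seen for 5 of the 7, the same 5 genes as in Il10ra_mKO, against 0.692% of all genes. The median difference of the 7 was 1.61, against 0.03 over all genes. With the spread of the resident arrays assumed for this pair, 0 of the 7 passed an adjusted p of 0.05 by limma, where 7.9% of all genes did, and Acod1 came nearest (difference 3.25 ± 0.67 SE, adjusted p = 0.0857). At an unadjusted p under 0.05, 3 of the 7 were higher (Acod1, Nos2 and Slc7a2), against 10.4% of all genes.

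Both comparisons have control arrays of their own, so the count that meets the 2-fold rule in each is not fixed by a shared control. It was 5 of 7, against 0.441% of all genes. The 7 were chosen with earlier results of these data known and Il10_KO is 1 array, so this count is no independent evidence. A contrast then tested whether the Il10ra_mKO effect differed from the Il10_KO effect. The Il10ra_mKO effect minus the Il10_KO effect was 1.41 ± 0.80 for Acod1 (SE, adjusted p = 0.582 by limma), 1.40 for Arg2 (adjusted p = 0.674) and 1.11 for Nos2 (adjusted p = 0.84), each larger in Il10ra_mKO. It was -0.39 for Slc7a2 (adjusted p = 0.955) and -0.03 for Ido1 (adjusted p = 1.0). By this test 0 of the 7 passed, also at an unadjusted p under 0.05, where 4.7% of all genes passed the adjusted threshold. With 1 Il10_KO array this does not show that the effects are alike.

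The 2 Il10ra_mKO arrays differed more from each other than the 3 WT arrays did for most of these genes. Array 1 was above array 2 for 6 of the 7, by 2.31 for Ido1, 1.83 for Nos2, 1.51 for Arg2, 1.17 for Slc7a2 and Arg1 and 0.77 for Acod1. Gch1 went the other way, by 0.19. The share of all genes with array 1 above array 2 is not given here. The sample titles number array 1 next to WT arrays 1 and 2, and array 2 next to WT array 3. Within these runs of numbers Acod1 differed by 4.92 in the first and 4.51 in the second, and Nos2 by 4.78 and 2.95. Arg2 differed by 3.50 and 1.95, Slc7a2 by 1.98 and 0.66, Gch1 by 0.49 and 0.49, and Ido1 by 2.72 and 0.46. Arg1 differed by 1.08 in the first run and by -0.07 in the second.

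Markers of other cell types were read beside these values. The 14 macrophage markers averaged log2 10.77 and 10.91 in Il10ra_mKO, against 10.85 to 11.04 in resident WT, and all 14 lay above 5.87 in every array. Single markers moved both ways: 3 of the 14 were above all resident WT arrays in both mutant arrays, and 4 were below. Mertk was 1.93-fold higher and Cd163 3.26-fold lower in Il10ra_mKO. The 15 epithelial markers averaged 10.63 and 8.76 in Il10ra_mKO, against 10.46 to 10.92 in resident WT, and 14 of 15 lay above 5.87 in every array. By this mean, array 1 lay within the resident WT range and array 2 below it. All 15 were higher in mutant array 1 than in array 2, and so were 11 of the 13 neutrophil markers. Of the macrophage markers 3 of 14 were, and of the dendritic cell markers 1 of 9. For 6 of the 7 enzyme genes array 1 was also above array 2, and there array 1 was above all resident WT arrays. The share of all genes with array 1 above array 2 is not given here, and a link was not tested. In Il10_KO the epithelial markers averaged 10.81, against 11.40 in CX3CR1hi WT. Neutrophils also make Acod1 and Nos2. Their 13 markers averaged 6.35 and 5.95 in Il10ra_mKO, against 5.72 to 5.78 in resident WT. Of the 13, 7 were above all resident WT arrays in both mutant arrays and none below. Those 7 were Csf3r, S100a8, S100a9, Retnlg, Cxcr2, Mpo and Mmp8, with Cxcr2, Mpo and Mmp8 below 5.87 in every array. S100a8 was only 1.46-fold and S100a9 1.29-fold higher, and both lay below 5.87 in mutant array 2. Csf3r, a receptor for the granulocyte growth factor, was at 9.60 and 10.01 in Il10ra_mKO, against 8.98, 8.33 and 8.92 in resident WT, 2.10-fold higher. Ly6g was 2.43-fold higher, with overlap. Of the 13, 7, Cxcr2, Mpo, Elane, Ltf, Camp, Ngp and Mmp8, lay below 5.87 in every array. In Il10_KO they averaged 5.90, against 5.69 in CX3CR1hi WT. The 9 dendritic cell markers averaged 7.01 and 7.38 in Il10ra_mKO, against 6.36 to 6.71 in resident WT, and 6.84 in Il10_KO, against 6.18 in CX3CR1hi WT. Of these 9, 6 were above all resident WT arrays in both mutant arrays and 1, Siglech, was below. Clec9a, which senses dead cells, was 7.50-fold higher in Il10ra_mKO and 6.21-fold in Il10_KO, and Ccr7, the lymph node homing receptor, 4.96-fold and 4.17-fold. Flt3 and Zbtb46 lay below 5.87 in every array. The 9 measured monocyte markers averaged 7.96 and 7.43 in Il10ra_mKO, against 7.56 to 7.64 in resident WT. By this mean, array 1 was above and array 2 below the WT arrays. In Il10_KO they averaged 7.04, against 7.05 in CX3CR1hi WT. Single monocyte markers moved in opposite directions. In Il10ra_mKO 2 of the 9 were at least 2-fold higher without overlap and 2 lower, against 182 higher and 270 lower of all 19938 genes. F10 was 8.70-fold higher and F13a1 8.38-fold lower. Markers of B and plasma cells (7 measured) averaged 7.62 and 8.12 in Il10ra_mKO, against 7.22 to 7.42 in resident WT, and those of fibroblasts and muscle (11 measured) 6.54 and 6.45, against 6.94 to 7.39. T cell and ILC markers averaged 6.12 and 6.19 in Il10ra_mKO, against 5.90 to 6.11 in resident WT. Eosinophil and mast cell markers averaged 5.24 and 5.18 in Il10ra_mKO, against 5.14 to 5.20 in resident WT, and endothelial and glial markers 5.58 and 5.54, against 5.53 to 5.67. For marker counts above or below all resident WT arrays at any size, the share over all genes is not given here. The part of these marker shifts in the results was not tested.

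**Figure D3:**
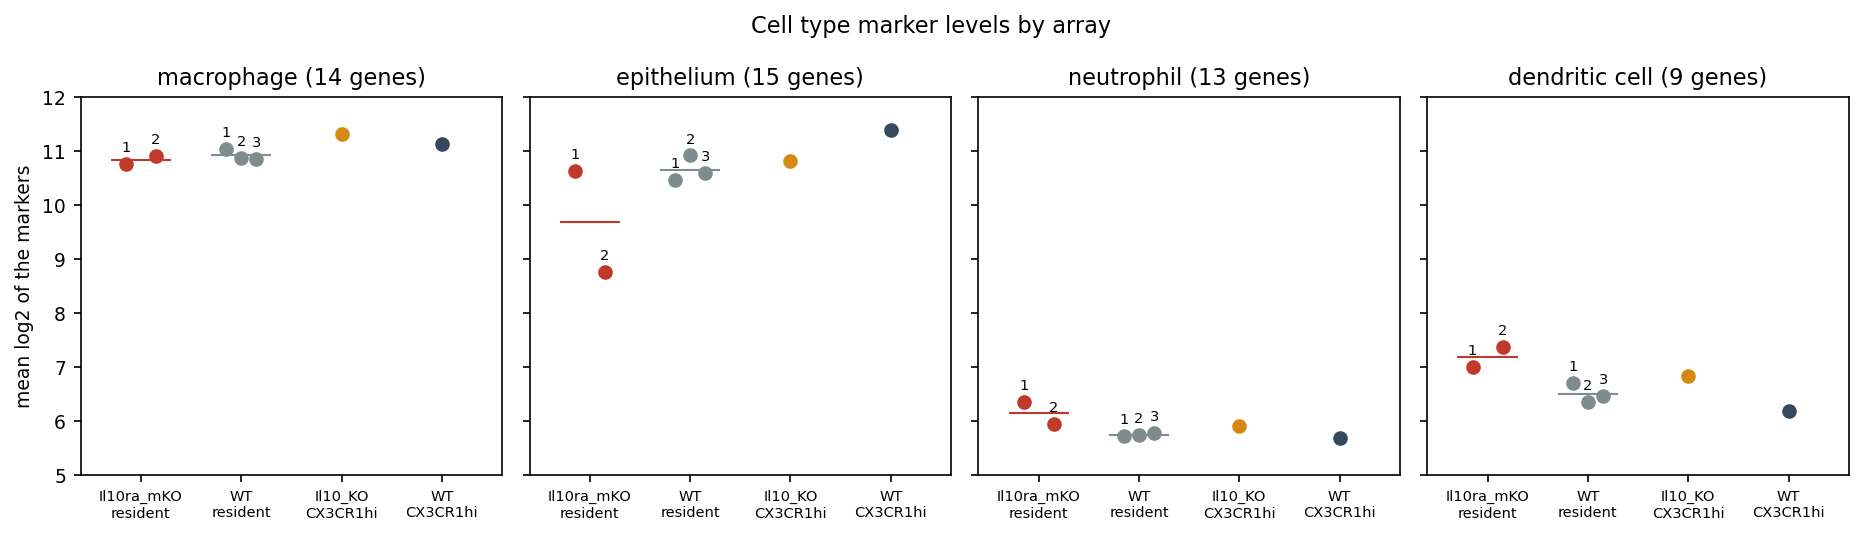
Mean deposited log2 value of the marker genes of 4 cell types (y axis) in each array, by group (x axis), with points numbered by replicate and bars for means. The macrophage mean lies between 10.77 and 11.31 in all 7 arrays, though single macrophage markers moved both ways in Il10ra_mKO. The epithelial mean of Il10ra_mKO array 2, 8.76, lies 1.87 below that of array 1.

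The other genes of these pathways, listed without the 8, mostly differed little. No gene of the 6 lists passed an adjusted p of 0.05 by limma for Il10ra_mKO, and the values below are differences in level. The 21 measured partners of itaconate were mostly enzymes of the citric acid cycle and of itaconate breakdown. Among them were also transporters, a receptor and regulators such as Keap1 and Nfe2l2. Of these 21, none was at least 2-fold higher without overlap and 1 was lower (median -0.08, against 0.0 over all genes). That gene was Suclg2, a subunit of the succinate-CoA ligase that forms succinate. It was at 8.77 and 8.09 in Il10ra_mKO, against 9.32, 9.59 and 9.61 in resident WT, a difference of -1.08 ± 0.25 (SE, adjusted p = 0.44 by limma).

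Of 15 measured genes of nitric oxide and tetrahydrobiopterin, besides Nos2 and Gch1, none was 2-fold higher without overlap and 1 was lower (median -0.04). The lower one was Pcbd1, which recycles the cofactor, named here after its values were seen. It was at 8.98 and 7.34 in Il10ra_mKO, against 9.18, 9.78 and 9.16 in resident WT, a difference of -1.21 ± 0.59 (SE, adjusted p = 0.678 by limma).

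Of 14 measured genes of arginine and the urea cycle, besides the arginases and Slc7a2, none was 2-fold apart in Il10ra_mKO (median -0.01). In Il10_KO 1 of them was lower by at least 2-fold, Otc, the urea cycle enzyme that joins ornithine to carbamoyl phosphate. It was at 5.91 in Il10_KO, against 7.02 in CX3CR1hi WT. Of 8 measured polyamine genes, which take the ornithine from arginase onward, none was 2-fold apart (median 0.10).

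Of 21 measured genes of tryptophan, kynurenine and the aryl hydrocarbon receptor, besides Ido1, none was 2-fold higher without overlap and 1 was lower (median -0.01). This was Ddc, aromatic amino acid decarboxylase, at 5.84 and 5.60 in Il10ra_mKO, against 6.66, 7.89 and 6.73 in resident WT, a difference of -1.37 ± 0.46 (SE, adjusted p = 0.6 by limma). Downstream of Ido1, kynurenine monooxygenase Kmo and kynureninase Kynu were looked at after their values were seen. Kmo was at 7.74 and 7.81 in Il10ra_mKO, against 8.16, 8.16 and 9.16 in resident WT, lower in both mutant arrays (difference -0.72 ± 0.38, SE, adjusted p = 0.678 by limma). Kynu was at 9.06 and 9.82 in Il10ra_mKO, against 8.27, 8.22 and 9.31 in resident WT, and these groups overlapped.

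Of 16 measured regulators known to induce these enzymes, 3 were at least 2-fold higher without overlap and none was lower (median 0.20). Cebpb, a transcription factor of the acute-phase response, was at 9.44 and 9.22 in Il10ra_mKO, against 8.38, 7.33 and 8.48 in resident WT, a difference of 1.27 ± 0.42 (SE, adjusted p = 0.599 by limma). Irf1, an interferon-induced transcription factor, was at 11.79 and 11.37 in Il10ra_mKO, against 10.84, 10.42 and 10.27 in resident WT, a difference of 1.07. Tlr2, a receptor for bacterial lipoproteins, was at 10.14 and 10.13 in Il10ra_mKO, against 9.50, 8.77 and 9.08 in resident WT, a difference of 1.02. In Il10_KO no regulator was 2-fold apart.

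**Figure D4:**
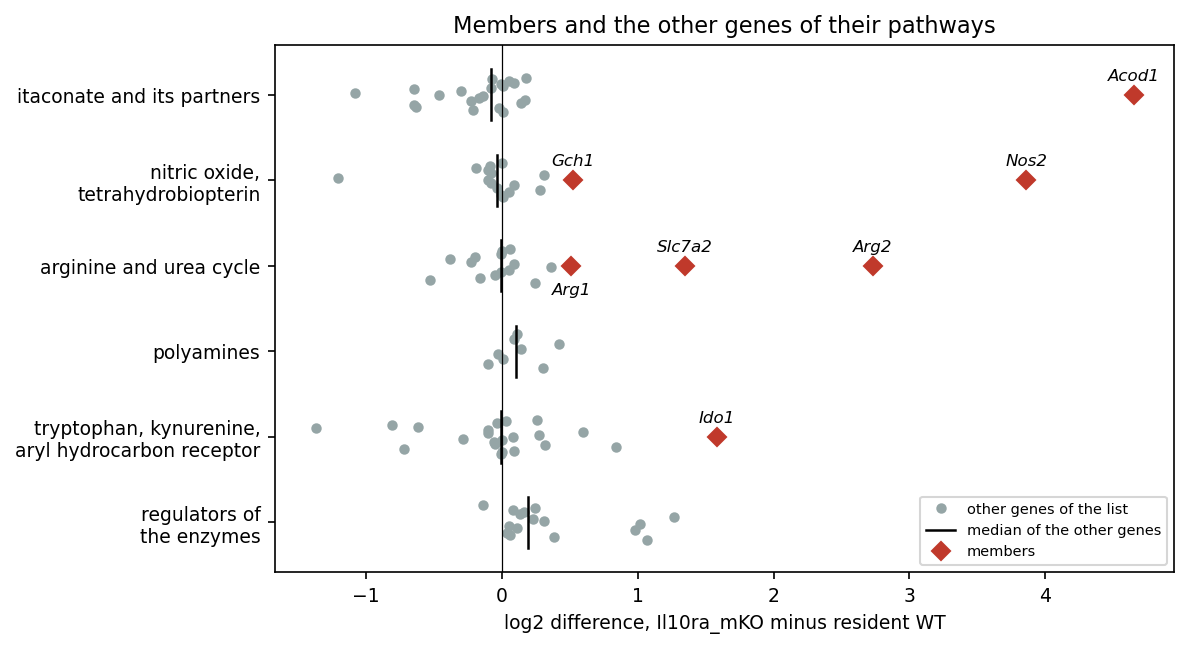
Log2 difference between Il10ra_mKO and resident WT (x axis) for the other measured genes of 6 lists (grey points, 1 per gene, with the list median as a black line) and for the 7 measured enzyme and transporter genes (red diamonds). Medians of the other genes lie between -0.08 and 0.20, while Acod1, Nos2 and Arg2 lie at 4.65, 3.86 and 2.73.

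The genes with the most similar pattern were looked for by Pearson r over the 7 arrays, among 4385 genes whose log2 values span at least 1. These arrays share genotype groups, sort labels and marker shifts, so r is a description only. Acod1 was most like Ly6i (r = 0.996), Cst7 (0.995) and Procr (0.991). Ly6i was at 11.07 and 10.33 in Il10ra_mKO, against 6.17, 5.77 and 5.91 in resident WT, close to Acod1 in every array. Nos2 was most like Saa3 (0.995), an acute-phase protein, Mcemp1 (0.988) and Cst7 (0.983), and Arg2 most like Upp1 (0.989), uridine phosphorylase, Gpd2 (0.983) and Saa3 (0.981). Slc7a2 was most like the chemokine Cxcl11 (0.986), Pla2g2a (0.973), a secreted phospholipase, and Clca4b (0.96). Ido1 was most like Ptk6 (0.992), a kinase of gut epithelium, Mfsd2a (0.988) and Trim40 (0.971). Among the 21 pairs of the 7 genes r ran from -0.32 for Arg1 and Gch1 to 0.972 for Nos2 and Arg2, with a median of 0.705. Acod1 and Nos2 had an r of 0.97.

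Across genes, Pearson r was 0.969 to 0.994 between arrays that share a sort label and 0.95 to 0.974 between arrays that do not. The upper quartile of log2 values was 7.93 to 8.01 in the resident arrays and 8.26 to 8.30 in the CX3CR1hi arrays, and for this reason the text compares levels only within a label, except where all 4 WT arrays are named. Of the 19938 genes, 12037 (60.4%) had exactly the same deposited value in 2 or more of the 5 resident arrays, and in 99.9% of such probe sets the value that recurred was the median of the 5. None had equal values in the 2 CX3CR1hi arrays, and 0 of the 7 enzyme and transporter genes had a recurring value. Such repeats lower the spread of those genes in the deposited values, and that spread enters the variance that limma shares between genes. Their part in the results was not tested.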

How the data were processed

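RNA of 7 arrays was measured on 1 Affymetrix platform. The deposited values are log2 expression per probe set, made by the authors with RMA, which corrects background, normalizes and summarises probes, and with Partek, per the submitters' processing notes. Their versions, the build and joint or separate processing of the arrays were not stated. Per the labels, RNA of 2 samples was extracted with miRNeasy Mini and of 5 with RNeasy Micro. Numbered in series order, the kit follows the sort label, so kit and label cannot be told apart. Of 35399 rows, 21789 have 1 gene symbol, 1621 several and 11989 none. The brightest row per gene was kept, and symbols were checked against RefSeq (21698 matched, 0 changed, 91 not matched).

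Differences were fitted with limma 3.58.1 in R 4.3.3 (group means, all 7 arrays, eBayes with trend, 3 residual degrees of freedom, prior 0.831). P-values are two-sided, adjusted over 19938 genes by Benjamini-Hochberg. Il10_KO is assumed to vary like the resident arrays. The fit was also run on simulated data with independent normal noise, and the outcome is not given here. Those data held no repeated values, so the run says nothing on the repeats in the deposited values. Members, gene lists and markers were chosen with earlier results of these data known. Named were the 8 genes, Il10ra and Il10. From each list, up to 3 genes in each direction at least 2-fold apart without overlap and with an unadjusted p under 0.05, and up to 2 at least 2-fold apart in Il10_KO, were named. For each member so apart, the 3 genes most like it were named. Alternatives were a brightness filter (10530 genes above 5.87 in at least 2 arrays), quantile normalization, median centring, no variance trend, averaged rows, a floor, the resident arrays alone, title-number runs as a block, each array left out in turn and all 4 WT arrays as control of Il10_KO.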

Additional observations from a re-analysis of the deposited data

How the results depend on the processing

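Over the 138 values recomputed for the 7 genes, 118 kept their direction and their side of the threshold, 13 newly passed it, 6 changed in size under the floor, where no test was used, and 1 reversed. Keeping direction does not mean an equal size: without Il10ra_mKO array 1, Arg2 was at 1.98, Slc7a2 at 0.76 and Ido1 at 0.43. The reversed value was Arg1, at -0.08 without Il10ra_mKO array 1, with a range of -0.08 to 1.09 over arrays left out in turn. The Acod1 difference ranged from 4.27 to 5.04 over 13 alternatives for Il10ra_mKO and from 3.12 to 3.47 over 7 for Il10_KO. The count of genes past an adjusted p of 0.05 for Il10ra_mKO was 1 as deposited, 12 with the brightness filter, 146 with median centring, 114 with quantile normalization, 4 without the variance trend and 0 with title-number runs as a block, and ran from 0 to 267 with an array left out. The cause was not tested. For Il10_KO the count was 1576, against 21 with quantile normalization and 31 with median centring, and it rests on an assumed spread. Genes at least 2-fold apart without overlap were 5 of 7, 3 with values below 5.87 set to that level, and 3 to 6 with an array left out. In Il10_KO they were 5, and 3 with that floor. With all 4 WT arrays as control, Acod1 (adjusted p = 0.0108) and Gch1 (0.00977) passed for Il10_KO, across sort labels, in a fit where 50.3% of all genes did. P-values under the floor were not used. No paired analysis was possible because the replicate numbers follow the accession order and pair no arrays. The block of title-number runs groups neighbouring numbers only, and gave 4.74 for Acod1 (adjusted p = 0.217 by limma). The 3 and 2 arrays of the resident groups limit the precision of every value.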
